A study of Mus musculus with 6 samples.

Results

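The type I interferon-stimulated genes are a group of 41 mouse genes, taken by gene symbol from a fixed list of members, out of 55536 genes in the count table. All 41 were found, and all 41 passed the filter on low counts that left 15374 genes for testing. They were measured by RNA sequencing of HCA-1 tumors, a murine hepatocellular carcinoma (HCC) line that had been grown orthotopically in the liver of male C3H mice (C3H/HeNCrNarl in the methods) aged 6–8 weeks. The 3 control libraries (controls 5, 6 and 7) came from untreated tumors, and the 3 treated libraries (GOx-DOX-LGP 1, 2 and 5) from tumors of mice given GOx-DOX-LGP intravenously, a lipid–gelatin–protamine nanogel that carried both glucose oxidase (GOx), the enzyme that oxidizes glucose and releases hydrogen peroxide, and doxorubicin (DOX), a DNA-damaging chemotherapeutic. All tumors came from 1 cell line. The labels place dosing on days 18, 19 and 20 but the transcriptome on day 17, after 3 h of circulation. The study's methods for quantitative PCR of such tumors give the same dosing days and a harvest on the day after the last dose. Its sequencing methods give no harvest day, so the time since dosing is uncertain. There was no group with the empty carrier, GOx alone or DOX alone, so the parts of the formulation cannot be told apart. The labels do not say that the libraries of a group came from separate mice, and p-values measure the spread between these libraries.

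Type I interferons are cytokines released by cells that sense foreign or misplaced nucleic acids, and by immune cells such as plasmacytoid dendritic cells. They bind the IFNAR receptor, whose kinases JAK1 and TYK2 phosphorylate STAT2. STAT2 acts with IRF9 in the complex ISGF3, which binds interferon-stimulated response elements in the promoters of target genes. The targets include proteins that bind viral RNA, enzymes that sense or degrade it, the ubiquitin-like ISG15 system and the components of the signal itself, and many of them also respond to interferon-γ.

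Promoter windows are shown for the short repeat that such elements contain, and were chosen because they hold a match. They belong to the Ifit and Oas genes, Isg15 and Rsad2, with Oas1g as the paralog of Oas1a. GAAANNGAAA was searched on both strands, so a match on the opposite strand reads TTTCNNTTTC, and matches may overlap. Each line gives 80 bases upstream of the start site, read 5′ to 3′ on the strand of the gene, from RefSeq sequences of build GRCm38.p6, with the matched bases in capitals.
Ifit1, chr19:34640759-34640838, plus strand: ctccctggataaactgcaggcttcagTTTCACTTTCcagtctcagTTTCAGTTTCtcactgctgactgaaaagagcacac
Ifit3, chr19:34583355-34583434, plus strand: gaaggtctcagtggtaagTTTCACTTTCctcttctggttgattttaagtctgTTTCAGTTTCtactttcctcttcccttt
Ifit3b, chr19:34607751-34607830, plus strand: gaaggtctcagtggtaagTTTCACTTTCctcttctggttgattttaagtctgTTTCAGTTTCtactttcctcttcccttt
Isg15, chr4:156200846-156200925, minus strand: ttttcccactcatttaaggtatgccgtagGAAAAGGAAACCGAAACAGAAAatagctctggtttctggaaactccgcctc
Oas1a, chr5:120907526-120907605, minus strand: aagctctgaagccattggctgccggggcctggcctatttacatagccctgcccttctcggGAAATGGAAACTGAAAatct
Oas1g, chr5:120887614-120887693, minus strand: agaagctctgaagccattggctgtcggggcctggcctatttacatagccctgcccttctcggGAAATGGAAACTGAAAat
Oas3, chr5:120777690-120777769, minus strand: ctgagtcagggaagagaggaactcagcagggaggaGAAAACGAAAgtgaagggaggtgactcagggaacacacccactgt
Rsad2, chr12:26456528-26456607, minus strand: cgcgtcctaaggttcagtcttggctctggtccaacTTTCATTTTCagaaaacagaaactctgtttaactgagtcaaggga
Stat2, chr10:128270248-128270327, plus strand: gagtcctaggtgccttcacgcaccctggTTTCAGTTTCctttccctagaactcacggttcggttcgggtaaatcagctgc

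The promoters of Oasl2, Xaf1, Isg20 and Phf11d, whose levels also differed (below an adjusted p of 0.05 in DESeq2), held no match. Stat2 is included because it carries a match although its level hardly differed between the groups. Ifit1, Ifit3 and Ifit3b each held 2 matches, and the windows of Ifit3 and Ifit3b are the same, within a run of 169 identical bases. Oas1a and Oas1g shared a run of 73 identical bases with the matches close to the start site, whereas the longest run shared by Oasl1 and Oasl2 was 9 bases. Promoters of 300 bases, from 250 before to 50 after the start site, were listed for 31 of the 41 members. Those of Usp18, Mx1, Mx2, Oas2, Ifi27, Ifi27l2a, Rtp4, Parp9, Parp14 and Ly6e were missing from the table. Some genes had more than 1 promoter, and a gene was counted once if any of them matched. GAAANNGAAA was present in 13 of the 31 members (41.9%), against 1079 of all 27025 genes in the table (3.99%). The motif of STAT dimers, TTCNNNGAA, was present in 6 of the 31 (19.4%), against 9.55% of all genes in the table. The match did not order the members by their difference between the groups. The 13 members with GAAANNGAAA had a median log2 fold change of 0.77, from 0.020 to 1.90, and the 18 without it a median of 0.90, from −0.29 to 1.40. A match describes letters in the window, not a site in use.

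Before the members are compared, the libraries themselves need describing. Library totals lay between 15529940 and 18401178 counts. Control 5 stood apart from the other controls: across genes, its log2 CPM (counts scaled to an equal library size) correlated with the treated libraries at 0.966 to 0.975 and with controls 6 and 7 at only 0.730 and 0.659. The summed level of 11 matched hepatocyte markers was 763 CPM in control 5, 139229 and 217953 CPM in controls 6 and 7, and between 1642 and 4016 CPM in the treated libraries. Albumin (Alb) alone took 73804 and 128240 CPM in controls 6 and 7 and 353 CPM in control 5. Controls 6 and 7 are called liver-rich for this reason. The amount of liver RNA thus moved with the groups through controls 6 and 7, and each main result is also given against control 5 alone and against controls 6 and 7. In bulk tumor RNA, fewer cells of a type and less RNA per cell cannot be told apart. Of the markers of the labelled tumor cells, Krt8 and Krt18, keratins of simple epithelium, were high in every library, from 313 to 790 CPM. Afp and Gpc3, both known as HCC markers, were at 13.2 CPM or lower.

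As a group, the interferon-stimulated genes were higher in the tumors given GOx-DOX-LGP. Of the 41 members, 39 had a log2 fold change above 0, against 51.1% of all genes tested, and their median was 0.74 against 0.021 for all genes. In 23 members, every treated library lay above every control, as it did in 8.87% of all genes. In no member did every treated library lie below every control, which 8.31% of all genes did. With edgeR's quasi-likelihood test, 17 members were higher at an unadjusted p under 0.05, against 2.87% of all genes, and 0 were lower, against 14.6% of all genes. After Benjamini-Hochberg adjustment, edgeR called 0 of the 41 members and 0 of the 15374 genes, with adjusted p-values of 0.247 to 0.255 for the 17. With DESeq2, 12 members were higher at an adjusted p under 0.05, against 0.93% of all genes, and 0 were lower, against 8.93%. At an unadjusted p under 0.05, DESeq2 placed 21 members higher (5.19% of all genes) and 0 lower (17.3%). With limma voom and sample quality weights, 24 of the 41 members were higher and 1 lower after adjustment, beside 29.2% and 30.9% of all genes. Before adjustment the counts were 26 and 1, beside 31.8% and 33.1% of all genes. The 12 called by DESeq2 were Ifit1, Ifit3, Ifit3b, Isg15, Isg20, Mx1, Oas1a, Oas3, Oasl2, Rsad2, Xaf1 and Phf11d, and all of them were among the 17 and among the 23. Leaving out GOx-DOX-LGP 1 or 2 lowered the edgeR count at the unadjusted threshold from 17 to 11 and 10, respectively. Over all genes, the count in either direction fell from 2685 to 1214 and 990 in the same fits. Of the 2685, 442 were higher and 2243 lower, so this background is not matched to the members by direction.

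**Figure D1:**
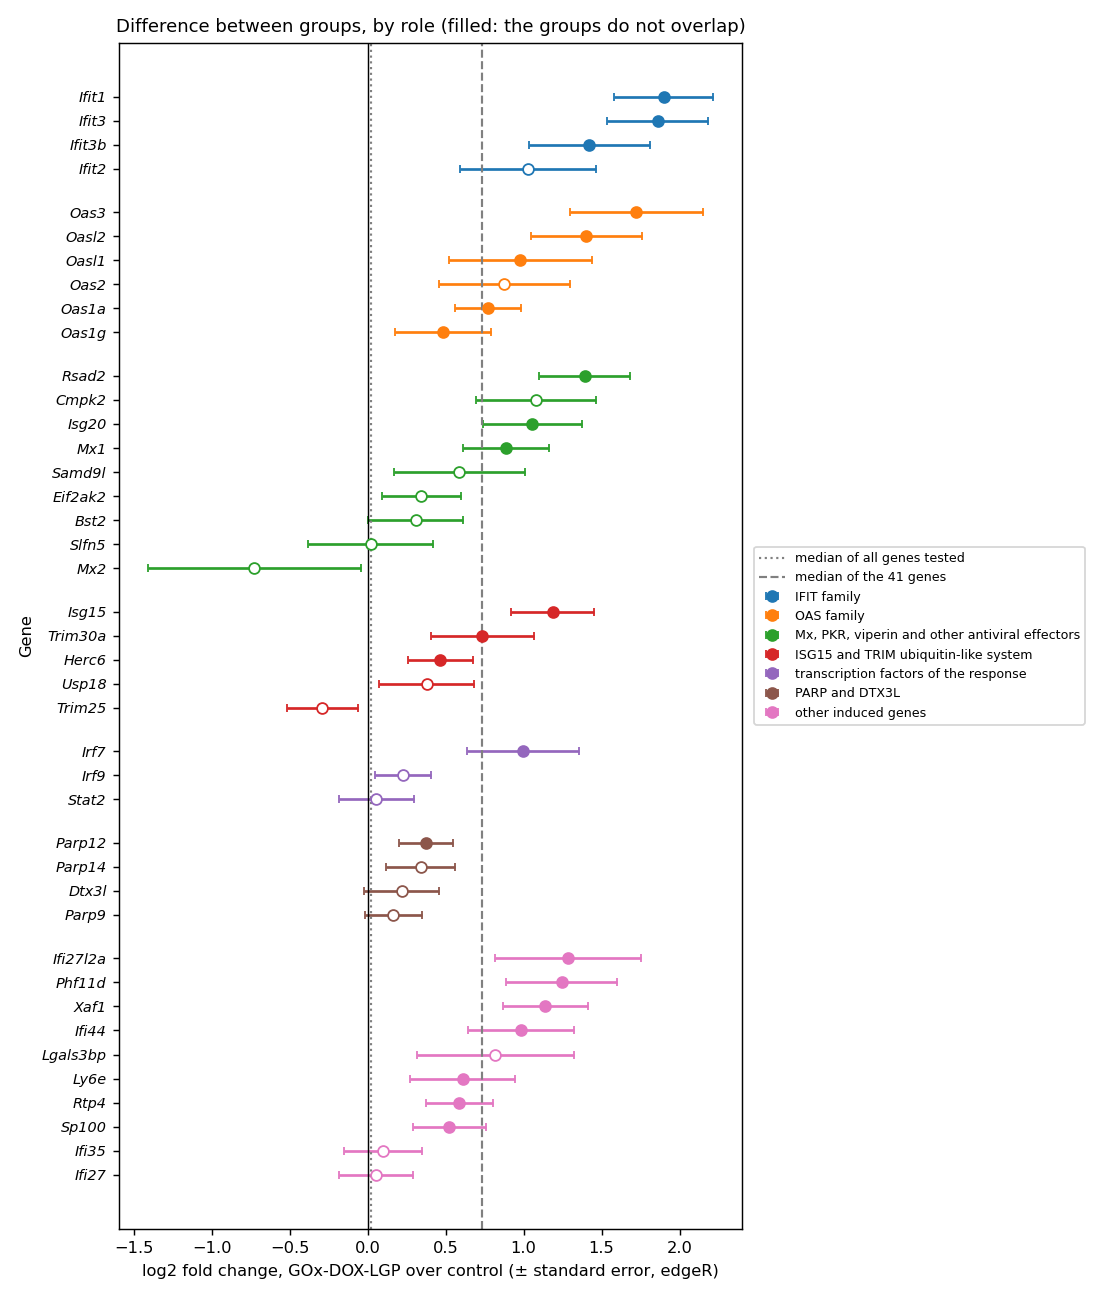
Log2 fold change (treated minus control, edgeR with TMM) of each of the 41 members with its standard error, ordered by role; filled points mark members whose 3 treated libraries all lay above the 3 controls. The Ifit and Oas families reach furthest to the right, up to 1.90 for Ifit1, whereas the PARP and DTX3L members and Stat2 lie near 0 and Mx2 lies at −0.73.

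The members' median lay above 0 against either kind of control. The median log2 difference of the 41 members was 0.65 between the treated libraries and control 5, and 0.71 between the treated libraries and controls 6 and 7, beside medians of −0.015 and 0.074 for all genes. In 33 members (80.5%) every treated library lay above control 5, which held for 26% of all genes. In 26 members (63.4%) every treated library lay above both controls 6 and 7, which held for 37.2% of all genes. Control 5 differed from controls 6 and 7 by a median of 0.028 over the members and 0.093 over all genes, but single members went both ways: control 5 lay above both in 15 members and below both in 16. With controls 6 and 7 left out and the lone control taken to vary like the other libraries, edgeR placed 18 members higher at an unadjusted p under 0.05, against 3.18% of all genes, and 0 lower, against 2.29%. None passed adjustment. With the mean hepatocyte marker level as a covariate, 19 members were higher, against 2.42% of all genes, and 0 lower, against 4.71%, again with none passing adjustment. Without control 5, 18 members were higher after adjustment, where 22.2% of all genes were, and Mx2 was lower, where 25.5% were. At an unadjusted p under 0.05, the counts were 25 higher and 1 lower, beside 27.2% and 28.3% of all genes. After adjustment in that fit, 46.3% of members and 47.7% of all genes passed when both directions were pooled. That likeness holds for the pooled share only, since 18 of the 41 members were higher and 1 lower.

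**Figure D2:**
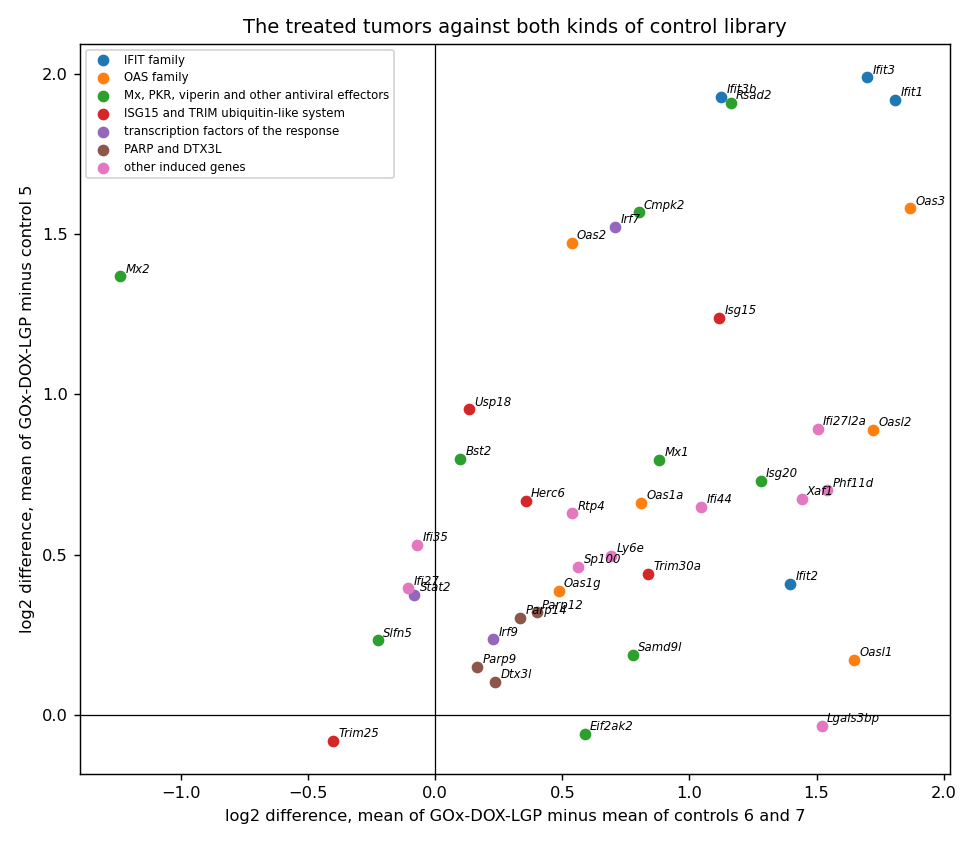
Log2 difference of the treated mean from controls 6 and 7 (x axis) and from control 5 (y axis) for each of the 41 members. Most members lie above 0 on both axes, with Ifit1 at 1.81 and 1.92, whereas Mx2 (−1.24 and 1.37), Lgals3bp (1.52 and −0.032) and Oasl1 (1.65 and 0.17) depend on the control used.

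The Ifit family, whose proteins bind foreign RNA and block its translation, showed the largest differences. The 4 genes lie together on chromosome 19, from Ifit2 at 34550694 to the end of Ifit1 at 34650009 (GENCODE M21 coordinates, build GRCm38). Their summed level was 85.1, 78.1 and 77.3 CPM in controls 5, 6 and 7, compared with 270.2, 312 and 155 CPM in treated libraries 1, 2 and 5. The family total was thus nearly even among the controls, liver-rich or not, and the groups did not overlap.

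Ifit1, which recognizes RNA lacking the host cap methylation, was at 20.0, 18.5 and 25.3 CPM in controls 5, 6 and 7 and at 93.2, 94.9 and 49.8 CPM in treated libraries 1, 2 and 5. The lowest treated library still lay well above the highest control. The mean was 3.73 times the control mean, and the log2 fold change was 1.90 ± 0.32 (SE), with an adjusted p of 0.247 in edgeR and 0.00053 in DESeq2. Ifit3, a partner of Ifit1, was at 23.1, 26.3 and 30.5 CPM in the controls and at 106, 124 and 59.6 CPM in the treated libraries. The order of the libraries was the same as for Ifit1 in the treated group, and again there was no overlap. Its log2 fold change was 1.86 ± 0.32 (SE), with an adjusted p of 0.247 in edgeR and 0.000724 in DESeq2. Its paralog Ifit3b was lower in level, from 4.43 to 8.48 CPM in the controls and from 11.2 to 21.8 CPM in treated libraries, with a log2 fold change of 1.42. Of the stretches of 50 bases in their exons, 51.2% in Ifit3 and 45.0% in Ifit3b also occur in other genes, chiefly each other, so the split of reads between them is uncertain. Ifit2, which is known to promote cell death, was at 37.5, 24.8 and 14.3 CPM in the controls and 50.8, 71.4 and 34.2 CPM in treated libraries, so that GOx-DOX-LGP 5 lay below control 5.

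**Figure D3:**
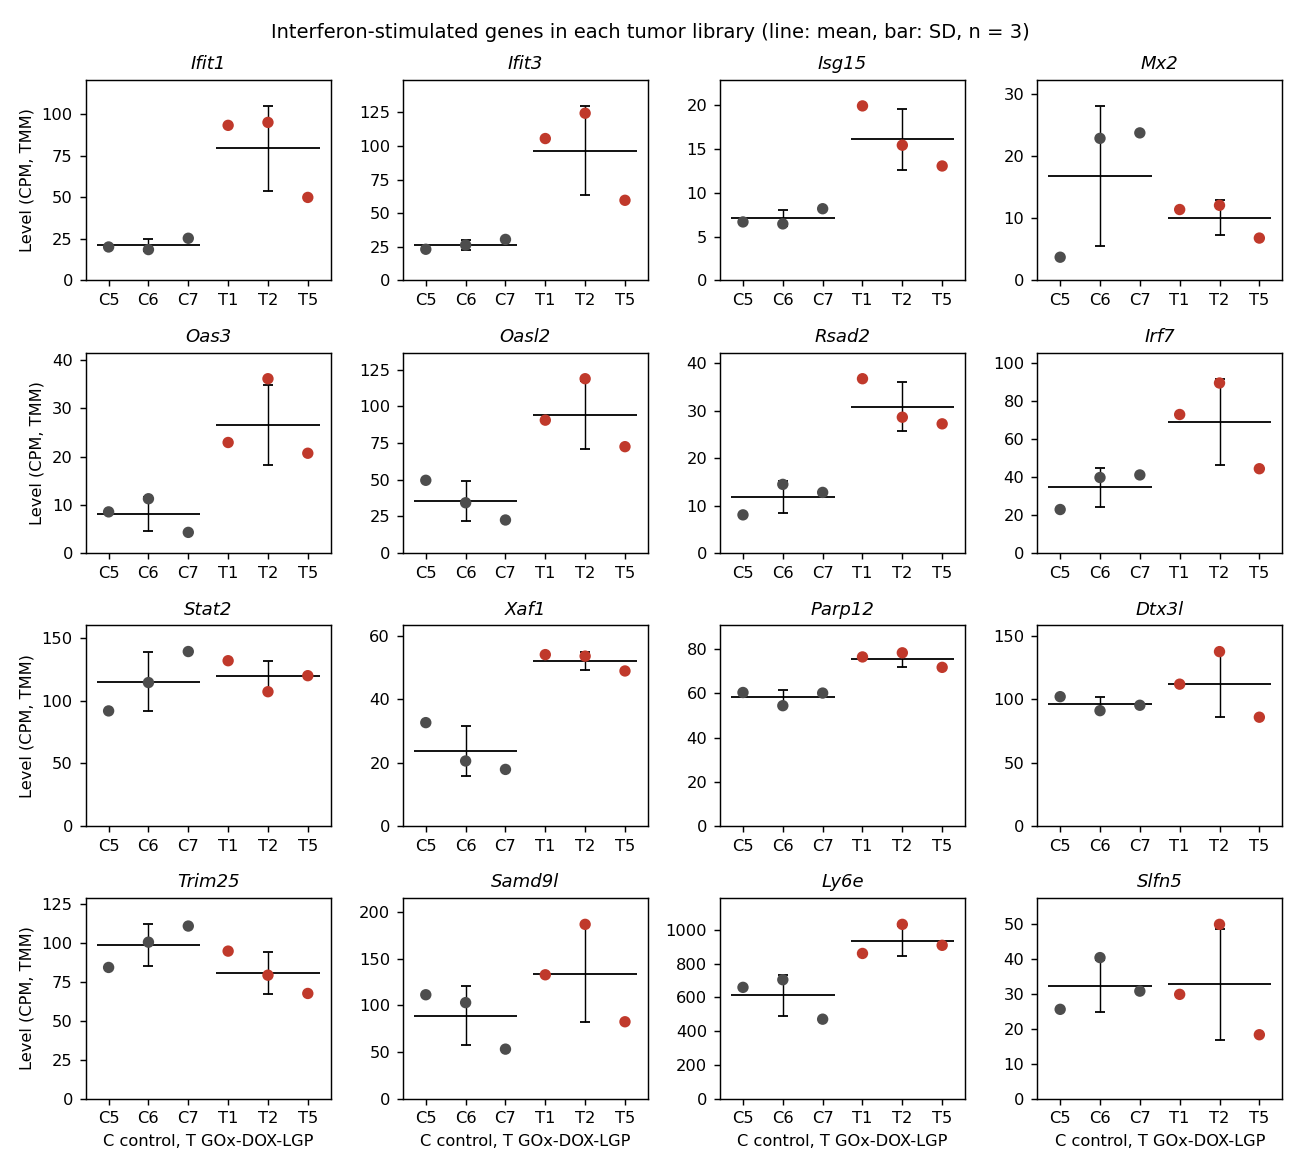
Level in CPM (TMM-normalized, linear axis per gene) of 16 members in each of the 3 control and 3 GOx-DOX-LGP libraries, with the mean and SD of each group (n = 3). Ifit1, Ifit3, Oas3, Oasl2, Rsad2 and Xaf1 show no overlap between the groups, while Stat2, Dtx3l, Trim25 and Slfn5 do, and Mx2 is lowest in control 5 at 3.73 CPM and highest in control 7 at 23.8 CPM.

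The oligoadenylate synthetases sense dsRNA and activate the nuclease RNase L, which degrades RNA in the cell. All 6 members had a log2 fold change above 0 (0.48 to 1.72, median 0.93), 5 did not overlap between the groups, and 3 were higher at an unadjusted p under 0.05 in edgeR. Over all genes these shares were 51.1%, 8.87% (every treated library higher) and 2.87%. Oas1a, Oas1g, Oas2 and Oas3 lie side by side on chromosome 5 between 120730333 and 120907521, and Oasl1 and Oasl2 lie next to each other on the same chromosome. Oas3, the synthetase with the longest chain of repeated domains, was at 8.55, 11.3 and 4.30 CPM in controls 5, 6 and 7 and at 22.9, 36.2 and 20.7 CPM in the treated libraries. All treated libraries lay above all controls. It differed by a log2 fold change of 1.72 ± 0.43 (SE), with an adjusted p of 0.247 in edgeR and 0.00526 in DESeq2.

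Oasl2, the most abundant member of the family in CPM, was at 49.7, 34.3 and 22.6 CPM in the controls and 90.7, 119 and 72.6 CPM in treated libraries. Control 5 was the highest control but did not reach the treated range. Its log2 fold change was 1.40 ± 0.36 (SE), with an adjusted p of 0.247 in edgeR and 0.00937 in DESeq2. Oas1a, at 11.2 to 12.5 CPM in the controls and 17.5 to 23.0 CPM in treated libraries, had a log2 fold change of 0.77, and Oas1g one of 0.48. These paralogs share much of their sequence, since 57.6% of Oas1a stretches and 45.7% of Oas1g stretches recur in Oas1 genes, and their separate values are uncertain. Oasl1, known to restrain translation of Irf7, was at 25.1 CPM in control 5, 8.31 and 9.69 CPM in controls 6 and 7, and 26.3 to 31.6 CPM in treated libraries. Its difference was therefore 1.65 on the log2 scale against controls 6 and 7 but 0.17 against control 5. Oas2 had the opposite dependence, with log2 differences of 0.54 against controls 6 and 7 and 1.47 against control 5.

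Among the other antiviral effectors, 8 of 9 members had a log2 fold change above 0, 4 were higher at an unadjusted p under 0.05 in edgeR and 3 did not overlap. The shares of all genes were 51.1%, 2.87% and 8.87% (every treated library higher). Rsad2 encodes viperin, which makes a chain-terminating nucleotide that stops viral polymerases. It was at 8.07, 14.5 and 12.8 CPM in controls 5, 6 and 7 and at 36.8, 28.7 and 27.3 CPM in treated libraries. The treated libraries were close to each other and all above the controls. Its log2 fold change was 1.39 ± 0.29 (SE), with an adjusted p of 0.247 in edgeR and 0.00255 in DESeq2. Its neighbour on chromosome 12, Cmpk2, a mitochondrial nucleotide kinase, was at 7.85, 15.4 and 11.7 CPM in the controls and 30.5, 28.2 and 15.1 CPM in treated libraries. GOx-DOX-LGP 5 lay just below control 6, which made Cmpk2 the member of the 17 whose groups overlapped, with a log2 fold change of 1.08.

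The Mx proteins are dynamin-like GTPases that trap viral nucleoproteins, and the mouse pair did not behave alike. Mx1 was at 4.92 to 5.60 CPM in the controls and 7.65 to 11.7 CPM in treated libraries, without overlap, with a log2 fold change of 0.89. Mx2 was at 3.73 CPM in control 5, 22.9 and 23.8 CPM in the liver-rich controls 6 and 7, and 11.4, 12.1 and 6.82 CPM in treated libraries 1, 2 and 5. All treated libraries thus lay between the controls, above control 5 and below controls 6 and 7. The log2 fold change was −0.73 ± 0.68 (SE), with an adjusted p of 0.558 in edgeR, and it changed sign to 1.45 without controls 6 and 7, to 0.82 with the hepatocyte covariate and to 0.070 with scaling by library totals alone. The hepatocyte marker sum ran in the same direction as Mx2 across the groups, and its part in the Mx2 level was not tested.

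Isg20, an exonuclease of single-stranded RNA, was higher without overlap, with 6.46 to 12.6 CPM in controls, 18.2 to 24.6 CPM in treated libraries and a log2 fold change of 1.06. Eif2ak2, the dsRNA-activated kinase PKR, was at 71.2 CPM in control 5, 43.2 and 47.9 CPM in the liver-rich controls and 60.8 to 73.3 CPM in treated libraries. Its log2 difference was −0.058 against control 5 and 0.59 against controls 6 and 7. Bst2, or tetherin, which holds budding virus at the membrane, had a log2 fold change of 0.31 with overlapping groups. Samd9l, a growth-restraining antiviral factor, was at 111, 103 and 53.2 CPM in the controls and at 133, 187 and 82.5 CPM in treated libraries. GOx-DOX-LGP 5 lay below controls 5 and 6, and the log2 fold change was 0.59 ± 0.42 (SE). Ifi44, an interferon-induced GTP-binding-like protein, was at 23.4 to 31.7 CPM in the controls and 32.1 to 73.6 CPM in treated libraries, which did not overlap only by a narrow margin.

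Of the ubiquitin-like system, Isg15 itself, the modifier that is attached to newly made proteins, differed most. It was at 6.67, 6.45 and 8.18 CPM in controls 5, 6 and 7 and at 19.9, 15.4 and 13.1 CPM in treated libraries. Controls were even, and every treated library lay above them. The log2 fold change was 1.19 ± 0.27 (SE), with an adjusted p of 0.247 in edgeR and 0.00304 in DESeq2. Usp18, the protease that removes ISG15 and dampens IFNAR signaling, overlapped between the groups, with a log2 fold change of 0.38, and its log2 difference was 0.95 against control 5 and 0.13 against controls 6 and 7. Herc6, the mouse ligase for ISG15, was at 20.3 to 25.6 CPM in the controls and 28.7 to 37.9 CPM in treated libraries, without overlap, with an adjusted p of 0.311 in edgeR. Trim30a, a restrainer of NF-κB signaling, also did not overlap, with a log2 fold change of 0.74. Trim25, the ubiquitin ligase of the RNA sensor RIG-I, was at 84.3, 100.5 and 111 CPM in the controls and at 94.8, 79.3 and 67.6 CPM in treated libraries. It was the other member with a log2 fold change below 0, at −0.29 ± 0.23 (SE), and its groups overlapped. With scaling by library totals alone its log2 fold change was 0.29, but that scaling moved the median of all genes to 0.51.

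The transcription factors of the response differed little apart from Irf7. Irf7, the factor that amplifies interferon-α production, was at 23.0, 39.9 and 41.2 CPM in controls 5, 6 and 7 and at 73.1, 89.7 and 44.5 CPM in treated libraries. GOx-DOX-LGP 5 lay only slightly above control 7, so the groups did not overlap but nearly touched. The log2 fold change was 0.99 ± 0.36 (SE), with an adjusted p of 0.252 in edgeR and 0.135 in DESeq2. Stat2 was at 91.8, 114 and 139 CPM in the controls and at 132, 107 and 119.9 CPM in treated libraries. Its groups overlapped fully, with a log2 fold change of 0.055 ± 0.24 (SE), which without control 5 was −0.052. Irf9, the DNA-binding part of ISGF3, was at 42.6 to 53.6 CPM in the controls and 53.4 to 58.1 CPM in treated libraries, with a log2 fold change of 0.23 and an adjusted p of 0.507 in edgeR.

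The ADP-ribosyltransferase (PARP) family genes and Dtx3l formed the most even group. Dtx3l encodes a ubiquitin ligase that pairs with Parp9 in DNA repair and interferon signaling. All 4 log2 fold changes lay between 0.17 and 0.37, none had an unadjusted p under 0.05, and only Parp12 did not overlap. Parp12, which blocks translation of viral RNA, was at 60.4, 54.4 and 60.2 CPM in the controls and at 76.5, 78.4 and 71.8 CPM in treated libraries. The difference was small but every treated library exceeded every control, with a log2 fold change of 0.37 ± 0.17 (SE) and an adjusted p of 0.323 in edgeR. Dtx3l was at 102, 91.1 and 95.3 CPM in the controls and at 112, 138 and 85.9 CPM in treated libraries. GOx-DOX-LGP 5 was the lowest of all 6 libraries, and the log2 fold change was 0.22 ± 0.24 (SE). Parp9 and Dtx3l overlap on opposite strands, and whether the counting used strand is not given, so their reads may not be separable.

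Among the remaining 10 members, all log2 fold changes lay above 0, 7 members did not overlap and 5 were higher at an unadjusted p under 0.05 in edgeR. Beside these stand 51.1%, 8.87% (every treated library higher) and 2.87% of all genes. Xaf1, an antagonist of the apoptosis inhibitor XIAP, was at 32.6, 20.5 and 17.9 CPM in controls 5, 6 and 7 and at 54.1, 53.6 and 49.0 CPM in treated libraries. The treated libraries were nearly equal and all above control 5, the highest control. Its log2 fold change was 1.14 ± 0.27 (SE), with an adjusted p of 0.247 in edgeR and 0.00662 in DESeq2. Ly6e, a membrane protein that modulates virus entry, had the highest level per length, at 162 ± 32.7 (SD, n = 3) RPKM (CPM per kilobase of exon) in controls and 247 ± 23.5 RPKM (SD, n = 3) in treated libraries. In CPM it was at 659, 704 and 471 in controls and 859.7, 1032 and 908 in treated libraries, without overlap. Its log2 fold change was 0.61 ± 0.34 (SE), with an adjusted p of 0.374 in edgeR.

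Phf11d had a log2 fold change of 1.24 and Rtp4, a chaperone of membrane receptors, one of 0.59, both without overlap. Ifi27l2a, a small mitochondrial protein, was at 2.15 to 5.13 CPM in the controls and 6.97 to 14.6 CPM in treated libraries. Sp100, a component of nuclear bodies, was at 42.3 to 61.9 CPM in the controls and 65.7 to 89.7 CPM in treated libraries. Lgals3bp, a secreted glycoprotein, differed from controls 6 and 7 but not from control 5, being at 292 CPM in control 5, 102 and 97.4 CPM in the liver-rich controls 6 and 7, and 330, 306 and 232 CPM in treated libraries. Ifi27 and Ifi35 had log2 fold changes of 0.054 and 0.099 with overlapping groups. Slfn5, a repressor linked to cell growth, was at 25.6, 40.4 and 30.8 CPM in the controls and at 29.9, 49.9 and 18.3 CPM in treated libraries. Its treated libraries spanned the whole control range, and its log2 fold change was 0.020 ± 0.40 (SE).

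Per kilobase of exon, the members spanned a wide range. After Ly6e, the highest mean levels in treated libraries were those of Lgals3bp at 101.5 ± 17.9 RPKM and Bst2 at 91.6 ± 19.2 RPKM (SD, n = 3), which lay within each other's spread. Ifit3 followed at 55.3 ± 19.1 RPKM, compared with 15.3 ± 2.11 RPKM in controls. The lowest were Oas1g at 2.29 ± 0.57 RPKM and Mx1 at 2.62 ± 0.55 RPKM. Ifit1 was at 8.01 ± 1.34 RPKM in controls and 29.9 ± 9.62 RPKM in treated libraries.

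The treated tumors differed among themselves in a repeated order. GOx-DOX-LGP 5 was the lowest treated library for 36 of the 41 members (87.8%), as for 35.1% of all genes. GOx-DOX-LGP 2 was the highest for 27 members (65.9%), as for 38.5% of all genes. Members are read from the same libraries, so these counts describe the libraries and are not independent of each other. GOx-DOX-LGP 5 had the highest summed level of T and NK cell markers, at 205 CPM against 142 and 118 CPM in GOx-DOX-LGP 1 and 2. It also had the highest sum of neutrophil markers, at 57.2 CPM against 18.0 and 27.2 CPM. GOx-DOX-LGP 2 instead had the highest leukocyte marker sum of the treated libraries, at 1085 CPM against 785 and 983 CPM in GOx-DOX-LGP 1 and 5. The same held for its macrophage marker sum, at 1558 CPM against 723 and 1070 CPM. The relation of these sums to the order of the members was not tested.

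**Figure D4:**
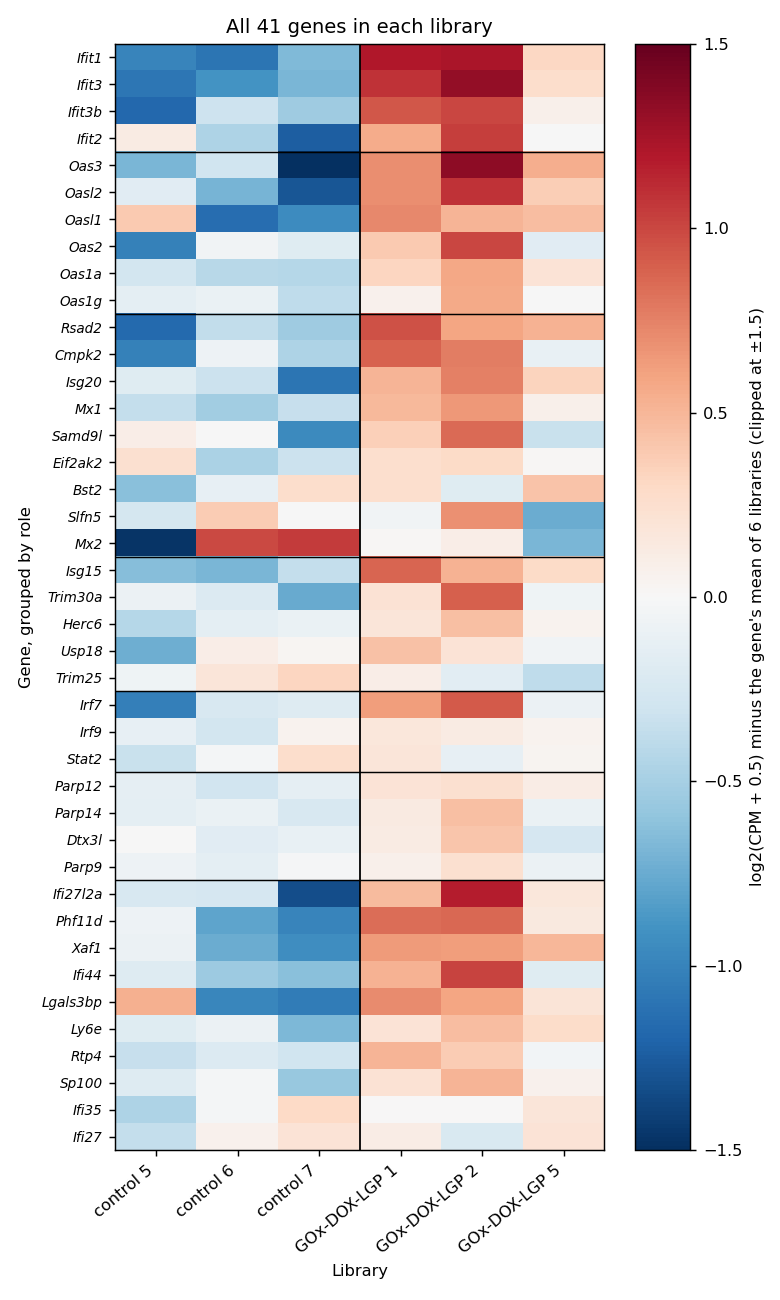
Log2(CPM + 0.5) minus the mean over the 6 libraries for all 41 members (rows, by role) in each library (columns), with the colour scale limited to ±1.5. The columns of GOx-DOX-LGP 1 and 2 are mostly above the mean, GOx-DOX-LGP 5 is the lowest treated column in 36 members, and Mx2 is low in control 5 alone among the controls.

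Markers of leukocytes and of T and NK cells moved with the groups as well. The 7 leukocyte markers were all above 0 in log2 fold change, against 51.1% of all genes. In 6 of them every treated library lay above every control, against 8.87% of all genes. Their sum was 417 to 753 CPM in the controls and 785 to 1085 CPM in treated libraries. The T and NK cell sum was 27.3 to 108 CPM in the controls and 118 to 205 CPM in treated libraries. Of its 7 tested markers, 4 did not overlap, against the same 8.87% of all genes. The sums of macrophage markers (433 to 789 CPM in controls, 723 to 1558 CPM in treated libraries), plasmacytoid dendritic cell markers (86.8 to 122 and 110 to 138 CPM) and neutrophil markers (8.07 to 22.9 and 18.0 to 57.2 CPM) overlapped between the groups. The 7 macrophage markers were not uniform. In 2 of them every treated library lay above every control (8.87% of all genes). In Mertk every treated library lay below every control (8.31%), with a log2 fold change of −0.52. Tcf4 made up most of the plasmacytoid dendritic cell sum, at 82.8 to 116 CPM in controls and 107 to 129 CPM in treated libraries. That sum therefore says little about the other markers of its list. Siglech, which defines plasmacytoid dendritic cells, was at 1.40 to 4.84 CPM in all libraries. Relative to control 5, treated libraries 1, 2 and 5 had 1.04, 1.44 and 1.31 times the leukocyte sum, 1.32, 1.09 and 1.90 times the T and NK cell sum, 0.917, 1.98 and 1.36 times the macrophage sum and 0.904, 1.36 and 2.87 times the neutrophil sum. The median member was 1.54, 1.86 and 1.37 times as high as in control 5, with single members from 0.716 times (Slfn5) to 5.38 times (Ifit3). Member folds and marker sums thus covered overlapping ranges, and the part of immune cells in the members' difference was not tested.

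The ligands of the pathway were near the limit of detection. Over 18 type I interferon genes, the summed counts were 1, 2 and 0 in controls 5, 6 and 7 and 7, 2 and 4 in treated libraries 1, 2 and 5, and 11 of these genes had 0 counts in every library. Ifnb1, the interferon most cells make first, had 0 counts in each control and 3, 1 and 2 counts in treated libraries. The control counts were all of Ifnk, which had 0 counts in every treated library. Without Ifnk, the type I genes summed to 0 counts over the controls and 13 over the treated libraries. A count of 0 allows up to 3 counts per library, so no fold can be given. With so few counts these genes did not pass the filter, and a difference was not tested. Such limits cover counting error only. Ifng, the type II interferon of T and NK cells, was at 2.11, 0.25 and 0.43 CPM in the controls and 2.92, 1.42 and 3.43 CPM in treated libraries, with a log2 fold change of 1.38 ± 0.81 (SE) and an adjusted p of 0.392 in edgeR.

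Receptors and kinases were more even than the members. Over 14 receptors, kinases and factors, edgeR placed 2 higher (2.87% of all genes) and 0 lower (14.6%) at an unadjusted p under 0.05. Their median log2 fold change was 0.29. Ifnar1 and Ifnar2, the receptor chains, had log2 fold changes of −0.068 ± 0.22 and −0.34 ± 0.30 (SE), and Jak1 and Tyk2 of 0.039 ± 0.28 and −0.16 ± 0.18 (SE). The pair past the unadjusted threshold was Il10rb, a receptor chain shared by interferon-λ and interleukin-10, at a log2 fold change of 0.66 ± 0.25 (SE), and Ifngr2, a chain of the interferon-γ receptor, at 0.51 ± 0.20 (SE), with adjusted p-values of 0.262 and 0.275 in edgeR.

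Of 7 negative regulators, edgeR placed 0 higher and 1 lower at an unadjusted p under 0.05, beside 2.87% and 14.6% of all genes. The count lower was thus near the background. Irf2, a factor that competes with activating IRFs, was the lower one, at 70.5 CPM in control 5, 185 and 207 CPM in controls 6 and 7 and 66.7 to 75.4 CPM in treated libraries. Control 5 lay within the treated range, so the difference rested on controls 6 and 7. Socs3, a feedback inhibitor of JAK kinases, had a log2 fold change of 1.29 ± 0.56 (SE), with log2 differences of 0.37 against control 5 and 2.21 against controls 6 and 7. Ptpn2, a phosphatase of JAKs and STATs, had a log2 fold change of 0.38 ± 0.18 (SE), and the adjusted p-values of Socs3 and Ptpn2 were 0.303 and 0.335 in edgeR.

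A further 35 interferon-stimulated genes that are not members, many of them shared with the interferon-γ response, were less shifted. Of these, 30 had a log2 fold change above 0 (51.1% of all genes), and in 10 every treated library lay above every control (8.87%). In edgeR, 2 were higher at an unadjusted p under 0.05 (2.87%) and 0 lower (14.6%). The median of the 35 was 0.30 against 0.74 for the members. The higher pair was Zbp1, a sensor of Z-form nucleic acid that triggers necroptosis, and Slfn2, a regulator of lymphocyte quiescence. Zbp1 was at 28.0, 16.2 and 13.5 CPM in the controls and at 50.3, 55.2 and 45.0 CPM in treated libraries, and Slfn2 at 32.3, 15.5 and 14.6 CPM and at 43.3, 68.4 and 50.9 CPM. Neither overlapped between the groups, and both had a log2 fold change of 1.38 with an adjusted p of 0.247 in edgeR, while the adjusted p in DESeq2 was 0.00418 for Zbp1 and 0.0228 for Slfn2. Shisa5, a proapoptotic membrane protein, followed with a log2 fold change of 0.90 ± 0.37 (SE) and an adjusted p of 0.288 in edgeR. It was at 138 CPM in control 5, 72.1 and 56.7 CPM in the liver-rich controls and 158 to 177 CPM in treated libraries, so that its log2 difference was 0.26 against control 5 and 1.37 against controls 6 and 7.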

How the data were processed

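RNA from orthotopic HCA-1 tumors was sequenced in 3 control and 3 GOx-DOX-LGP libraries, assigned from their labels. The raw counts per gene were deposited by the authors without normalization or pooling. The signal values the authors deposited beside them are those counts divided by a size factor per library, and the ratio was constant within 5.04e-08% over the 34685 genes listed. They served only for gene symbols. Tools are in conflict: the study's methods name TopHat and HTSeq, whereas the submitters' processing notes name CASAVA, FastQC, MultiQC, Trimmomatic 0.38, HISAT2 2.1.0 and featureCounts 2.0.0. The genome build, annotation and use of strand are not given in the sources used here. Reads shared by paralogs may have been dropped, split or counted once, which changes the values of those genes.

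Software comprised edgeR 4.0.16, DESeq2 1.42.0 and limma 3.58.1 under R 4.3.3, with plots from matplotlib 3.10.9 (Python 3.11.15). Low counts were removed by filterByExpr, libraries scaled by TMM (factors 0.570 to 1.24) and genes tested by the edgeR quasi-likelihood test on the 6 libraries, with group as the single term. Benjamini-Hochberg adjustment covered all genes tested, with a threshold of 0.05. CPM are TMM-scaled, log2 CPM used a prior count of 2, and RPKM divided CPM by merged exon length from GENCODE M21. The exact two-sided permutation test of 3 against 3 libraries cannot give a p below 0.1, the value of the 23 members without overlap. The floor was 3 counts in every library, the upper limit taken for a count of 0, or 0.132 to 0.323 CPM. The procedure was tested on simulated data. Members given library by library were the one with the highest mean CPM and the one with the smallest p in each role, and the 3 highest and 3 lowest log2 fold changes. From each pathway list, the 3 genes with the smallest p and Ifnb1, Ifnar1, Ifnar2, Jak1 and Tyk2 were named, except for 1 gene that is not reported here. Other members were described after their values were seen. The members and lists were chosen with earlier results of these data known. Alternatives covered the filter, scaling, DESeq2, limma voom with sample quality weights, a hepatocyte covariate and leaving out libraries.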

Additional observations from a re-analysis of the deposited data

How the results depend on the processing

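The median log2 fold change of the members (0.74) was 1.12 with scaling by library totals alone, which moved the median of all genes to 0.51, and lay between 0.55 and 0.90 when each library was left out in turn. The count of members higher at an unadjusted p under 0.05 (17) was 26 with limma voom and sample quality weights and 10 to 25 when each library was left out, and the count lower (0) was 1 with voom and 0 to 1. Beside these, the genes past that threshold in either direction numbered 2685 in edgeR, 9984 with voom and 696 to 9026 when each library was left out. Of the 2685, only 442 were higher. Members past adjustment in either direction numbered 0 in edgeR, 12 in DESeq2 and 25 with voom. They numbered 0 to 19 when each library was left out, with 19 only without control 5. Over all genes these counts were 0, 1516, 9254 and 0 to 7745. With voom, 61% of members and 60.2% of all genes passed with both directions pooled. There, 24 members were higher and 1 lower, beside 29.2% and 30.9% of all genes. Without control 6, 7 or GOx-DOX-LGP 1, 2 the unadjusted count was 12, 13, 11 and 10, beside 1316, 1284, 1214 and 990 of all genes in either direction. The lone sample left without controls 6 and 7 was assumed to vary like the others.

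The log2 fold change of Mx2 was 0.070 with library totals, 0.82 with the hepatocyte covariate and 1.45 without controls 6 and 7, against −0.73, and that of Trim25 was 0.29 with library totals, against −0.29. For Slfn5 (0.020) it was −0.40 with voom and −0.40 to 0.35 when each library was left out, and for Stat2 (0.055) −0.052 to 0.21. The cause was not tested. Eif2ak2, Lgals3bp, Ifi27 and Ifi35 were above 0 in 14 of 15 settings, and the other 33 members in all 15. No paired analysis was possible because the groups share only 1 library number (5). The small groups and the spread among the controls limit the adjusted values, and depth limits the ligands.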

Other observations

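The summed endothelial markers were lower in the treated libraries, at 93.6 to 110 CPM against 126 to 254 CPM in controls, without overlap, and the lowest control was control 5. Among them, Kdr was at 18.7 CPM in control 5, 81.7 and 105 CPM in the liver-rich controls 6 and 7, and 12.6 to 16.1 CPM in treated libraries. Emcn went the other way, with a log2 fold change of 0.24 and overlapping groups. Epithelial and HCC cell markers were at 761 to 1141 CPM in controls and 1265 to 1421 CPM in treated libraries, also without overlap. Krt8 and Krt18 made up most of that sum, whereas Afp and Gpc3 had log2 fold changes of −1.26 and −1.06, with adjusted p-values of 0.274 and 0.264 in edgeR.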
